A study of Rattus norvegicus with 2 samples.

Results

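The Hes, Hey and Id genes code for transcriptional repressors, most of which hold back differentiation in the nervous system. The 10 genes described here are Hes1, Hes5, Hes6, Hey1, Hey2, Heyl, Id1, Id2, Id3 and Id4. They come from 22093 rat genes that had a symbol of their own on a whole-transcript expression array. They were listed by gene name, with earlier results of these data known. All 10 were on the array, each with 1 probe set. The array measured RNA from rat neural stem cells (NSCs), which were isolated from whole brains of Sprague-Dawley (SD) embryos at day 13.5 and grown as neurospheres for 10 days in serum-free medium with 25 ng/mL bFGF and 25 ng/mL EGF. The co-cultured group was seeded on passage 3 ectodermal mesenchymal stem cells (EMSCs) from transgenic rats that express green fluorescent protein (GFP), kept there for 14 days in medium with 10% fetal bovine serum, and separated from the feeder cells by fluorescence-activated sorting. The mono-cultured group, the control, was kept alone for 14 days. The medium of the mono-culture during these days, the sort gate, whether mono-cultured cells were sorted, the promoter that drives GFP and the number of embryos pooled were not stated in the labels. Each group is 1 array, so the differences below lack any replication and could not be tested. Serum, sorting and contact with EMSCs cannot be told apart.

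Hes and Hey proteins are basic helix-loop-helix (bHLH) proteins with an Orange domain. When a Notch receptor is bound by a Delta or Jagged ligand on a neighbouring cell, its intracellular part is cut free, joins the DNA-binding protein Rbpj and switches on Hes and Hey genes. Hes1 and Hes5 recruit Groucho co-repressors and shut off proneural genes, which keeps neural progenitors undifferentiated. Id proteins have the helix-loop-helix part but lack the DNA-binding basic region. They bind the E proteins, the common partners of proneural bHLH factors, and so keep both off DNA. Id genes are classic targets of bone morphogenetic protein (BMP) signalling through Smad proteins.

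Promoter sequences of members on which the comparison turns are shown first, because Notch acts on Hes and Hey genes through Rbpj sites. Promoter windows of 250 bases before to 50 bases after the annotated start were taken from RefSeq (build GRCr8), where 9 of the 10 members had an entry. Hey1 had none. Each window was searched on both strands for TGGGAA, the core of the Rbpj site (TTCCCA on the other strand). It was also searched for the N box CACNAG, which Hes proteins bind, and for the E box CANNTG, which proneural factors with their E protein partners bind. The sequences below run 5′ to 3′ along the gene, with matches to the Rbpj core in capitals. They are those of Hes1 (chr11:84212996-84213295, minus strand), Heyl (chr5:140793021-140793320, plus strand), Hes5 (chr5:170804327-170804626, plus strand) and Hey2 (chr1:28640850-28641149, plus strand).
Hes1: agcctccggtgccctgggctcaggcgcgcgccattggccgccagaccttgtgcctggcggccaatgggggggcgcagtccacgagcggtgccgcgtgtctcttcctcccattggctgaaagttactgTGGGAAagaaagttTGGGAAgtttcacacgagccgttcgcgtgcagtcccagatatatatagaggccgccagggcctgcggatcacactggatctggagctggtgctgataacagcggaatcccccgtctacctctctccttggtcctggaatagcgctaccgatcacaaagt
Heyl: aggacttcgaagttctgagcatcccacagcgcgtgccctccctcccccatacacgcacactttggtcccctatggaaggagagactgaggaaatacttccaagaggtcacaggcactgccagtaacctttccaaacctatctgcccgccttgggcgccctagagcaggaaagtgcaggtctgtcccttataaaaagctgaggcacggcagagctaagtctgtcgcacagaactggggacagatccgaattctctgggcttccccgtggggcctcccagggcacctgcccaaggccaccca
Hes5: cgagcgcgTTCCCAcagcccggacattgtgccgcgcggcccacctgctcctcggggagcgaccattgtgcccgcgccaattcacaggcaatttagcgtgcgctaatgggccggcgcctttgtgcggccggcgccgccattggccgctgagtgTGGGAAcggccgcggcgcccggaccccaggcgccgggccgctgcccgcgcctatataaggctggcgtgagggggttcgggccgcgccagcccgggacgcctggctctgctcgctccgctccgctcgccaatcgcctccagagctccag
Hey2: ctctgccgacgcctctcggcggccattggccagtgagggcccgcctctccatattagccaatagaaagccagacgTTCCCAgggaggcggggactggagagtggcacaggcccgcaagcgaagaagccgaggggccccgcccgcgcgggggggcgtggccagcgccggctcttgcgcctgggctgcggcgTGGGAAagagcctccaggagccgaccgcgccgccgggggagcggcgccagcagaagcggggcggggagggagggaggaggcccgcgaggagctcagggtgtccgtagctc

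The Rbpj core was present in 3 of the 9 windows, those of Hes1, Hes5 and Hey2, with 2 matches in each. Of 33469 rat promoter windows of the same length, 25.7% held at least 1 match and 3.85% held 2 or more. In Hes1 both matches lay on the gene's own strand, starting 123 and 109 bases before the start, with 8 bases between them. In Hes5 they started 242 and 98 bases before the start, and in Hey2 175 and 60 bases, on opposite strands in both genes. The N box was present in 3 windows (Hes1, Hes6 and Id2), against 43.1% of all windows, and Hes1 held 4 matches. The E box was present in 5 windows (Hes5, Hes6, Heyl, Id1 and Id2), against 72.1%. The windows of Id3 and Id4 held none of the motifs searched. No match to one motif overlapped a match to another in these windows (0 overlaps). The members' windows had a median GC content of 63.7% (55.7 to 73.3%), against 51.7% for all windows, and a median of 21 CpG dinucleotides (8 to 41) against 7. Heyl, Id3 and Hes5 all lie on chromosome 5. A match describes these letters and is no measure of binding.

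**Figure D1:**
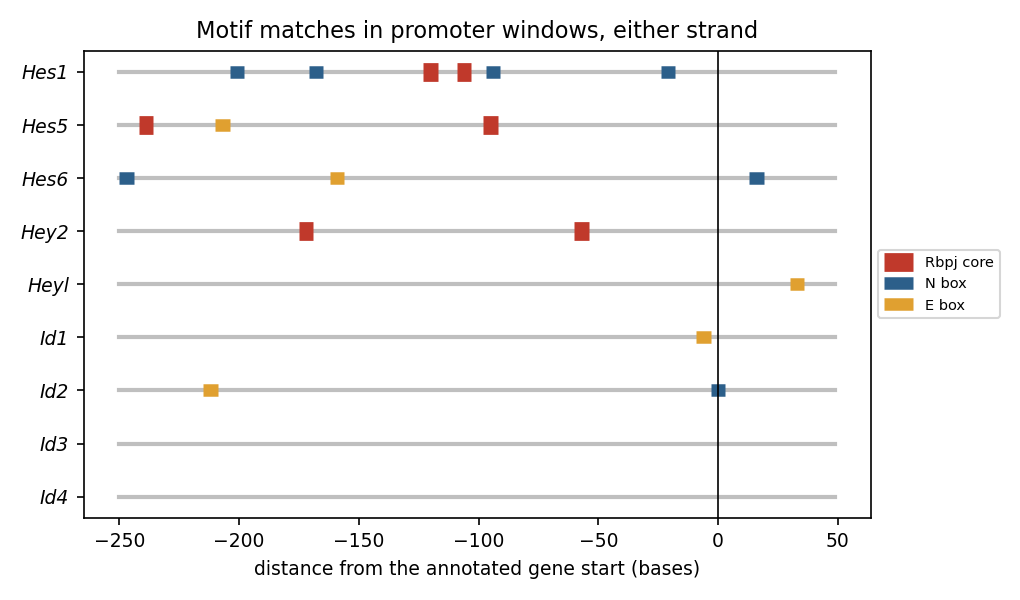
Matches to the Rbpj core, the N box and the E box in the promoter windows of 9 members, each a horizontal line, against distance in bases from the annotated gene start (vertical line). Hes1, Hes5 and Hey2 each have 2 Rbpj core matches, and those of Hes1 lie 8 bases apart.

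Hes1 and Heyl had higher levels in co-cultured than in mono-cultured NSCs, and Id3 had a level just short of 2-fold higher. Hey1, Hey2 and Id2 had levels 1.62 to 1.69-fold lower in co-culture. Hes5, Hes6 and Id1 had nearly the same level on both arrays (the sign for Hes6 and Id1 turned with the scaling), and Id4 was slightly lower in co-culture. In bulk RNA such as this, fewer cells that express a gene and less of its RNA per cell cannot be told apart. Levels are log2 values as deposited. A difference is always the level in co-culture less that in mono-culture, so 1 unit is 2-fold and a negative value means a lower level in co-culture. At 2-fold, 2 members were higher (Hes1 and Heyl) and 0 were lower. A gene was kept for comparison when its higher level reached 4.97, the median of all gene levels, and 11849 genes were kept, all 10 members among them. Of these kept genes 5.04% were higher in co-culture by 2-fold or more, and 5.54% were lower by as much. Among the 8439 kept genes with a mean level in the members' range (4.99 to 7.11) the shares were 4.29% and 5.23%. Counts of 2 and 0 among 10 genes do not set the family apart from these shares. Heyl was kept only through co-culture (5.55, against 4.42 in mono-culture), so the count of 2 depends on the background. With both levels required to reach the median gene level, the count of higher members was 1.

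The median difference of the 10 members was -0.06, and that of all kept genes was also -0.06. Of the 10 members, 7 had an absolute difference above that of the median kept gene, 0.26, and the median absolute difference of the members was 0.71. Of the differences 3 were positive and 7 negative, from -0.76 for Hey1 to 2.60 for Hes1. On both arrays 9 of 10 members reached the median gene level, Heyl being the exception. All members lay above the median of the negative controls, 3.39 in co-culture and 3.60 in mono-culture. Most did not reach the brighter of these controls. The 95th percentile of the 1153 probe sets named as negative controls, called the negative control level here, was 6.64. In co-culture 3 members exceeded it (Hes1, Id2 and Id3) and in mono-culture 2 did (Id2 and Hey1). Id2 exceeded it on both arrays, and 6 members exceeded it on neither, so for most members a level above background is not established. The 75th percentile of all gene levels was 6.30, so most genes on the array also lay below 6.64. As a measure of technical spread, the SD of the difference among 399 positive control probe sets was 0.44, with the central 95% from -1.15 to 0.61. Among the negative controls the SD was 0.65, with the central 95% from -1.44 to 1.11. Both control sets had a median difference of -0.16, and both ranges reach further below 0 than above it. Hes1, Heyl and Id3 lay outside the range of the positive controls, and Hes1 and Heyl also outside that of the negative controls, with 1.13 for Heyl just past the upper limit. The other 7 members lay inside both ranges. Among these, Hey1, Id2 and Hey2 had differences larger than 0.61 in size, but negative.

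**Figure D2:**
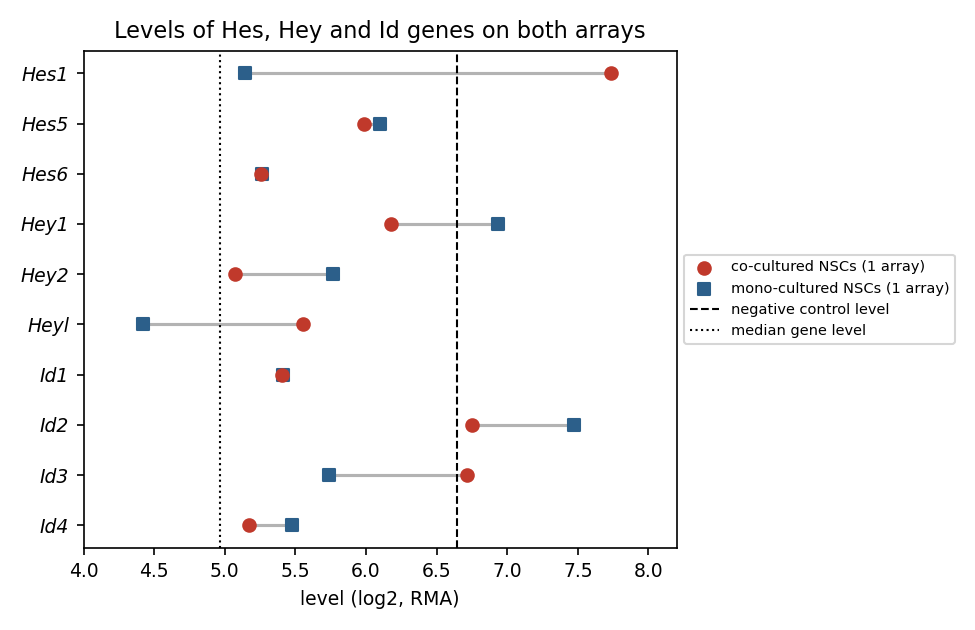
Level (log2) of each member on the co-cultured array (circles) and the mono-cultured array (squares), with the negative control level of 6.64 (dashed) and the median gene level of 4.97 (dotted). Hes1 has the widest gap, between 7.74 in co-cultured and 5.14 in mono-cultured NSCs, and the symbols of Hes6 and Id1 overlap.

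Markers of other cell types differed between the arrays along with the members. Among 10 markers of mesenchymal cells, the kind used as feeders, 9 had levels higher by 2-fold or more in co-culture, and the median difference was 3.89. The log2 of their summed level was 13.12 in co-cultured and 9.26 in mono-cultured NSCs, and 9 of 10 in co-culture and 1 of 10 in mono-culture exceeded the negative control level. Of 10 microglia markers 10 were at least 2-fold lower, with a median of -4.72 and a summed level (log2) of 8.43 in co-cultured and 12.68 in mono-cultured NSCs. In co-culture 1 of these 10 exceeded the negative control level, and in mono-culture 9 did. Of 9 kept astrocyte markers 7 were lower and 1 was higher by 2-fold or more, with a median difference of -1.96 and a summed level of 9.56 in co-cultured and 11.34 in mono-cultured NSCs. Of 6 kept neural stem cell markers 2 were lower by 2-fold or more and 0 were higher by as much (median -0.57). Fabp7 differed by -1.95, Sox9 by -1.66, Msi1 by -0.997 (just short of 2-fold), Nes by 0.80, Vim by 0.34 and Sox2 by -0.14. The stem cell marker Pax6 was below the median gene level on both arrays. Neuron markers had a median of -0.63 and oligodendrocyte lineage markers one of 0.60. Of 8 endothelial markers 3 were kept, and 2 of these were lower by 2-fold or more (Pecam1 by -1.48 and Eng by -2.02). The other, Cdh5, was higher, by 0.96. Pecam1 was kept only through mono-culture and Cdh5 only through co-culture. The part of any of these cell types in the levels of Hes1, Heyl, Id3, Id2, Hey1 and Hey2 was not tested.

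**Figure D3:**
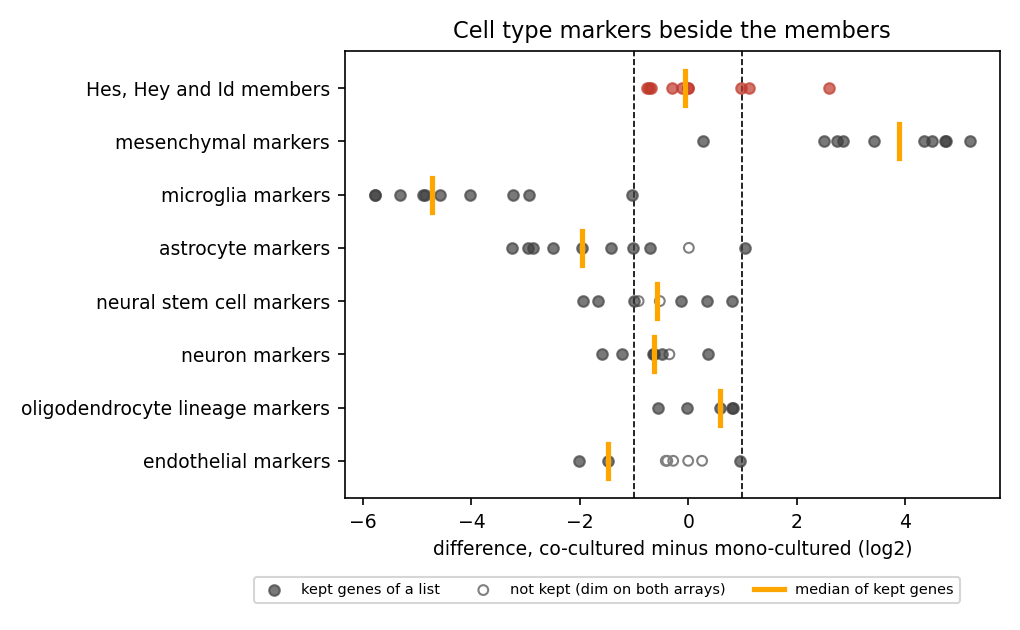
Difference between the arrays (co-cultured minus mono-cultured, log2) for the 10 members and for markers of 7 cell types, 1 point per gene, with open circles for genes that were not kept, an orange bar at the median of kept genes and dashed lines at 2-fold. Mesenchymal markers have a median of 3.89 and microglia markers one of -4.72, both beyond the whole range of the members (-0.76 to 2.60).

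Hes1 is the Hes gene that keeps neural stem cells undifferentiated, is also expressed in many cell types outside the nervous system, and represses its own promoter. It stood at 7.74 in co-cultured and 5.14 in mono-cultured NSCs. The difference of 2.60 is 6.04-fold, and it ranked 113 of 11849 kept genes from the highest. Hes1 passed the negative control level in co-culture and lay below it in mono-culture, so the size of the difference depends on the background. By a rule that names the 3 kept genes with the closest difference on these 2 arrays, Hes1 stood next to Mfap4 (2.60), Antxr1 (2.60) and Hoxc6 (2.58). Hoxc6 was kept only through co-culture (5.52, against 2.94 in mono-culture). Both of its levels lay below the negative control level.

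Hes5, the other main Notch effector in neural progenitors, stood at 5.99 in co-cultured and 6.10 in mono-cultured NSCs (difference -0.11). Hes5 was thus nearly equal on the arrays. Like Hes1, it has 2 Rbpj core matches in its promoter window. The difference of Hes1 exceeded that of Hes5 by 2.70. For scale, the differences of several probe sets of the same gene scattered with an SD of 0.26, over 475 kept genes that had more than 1 bright probe set, which is technical spread within the arrays only. Hes6, which counteracts Hes1 and promotes neuronal differentiation, stood at 5.25 in co-cultured and 5.27 in mono-cultured NSCs (difference -0.01). Hes5 and Hes6 were below the negative control level on both arrays.

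The Hey genes code for relatives of Hes proteins that act downstream of Notch in blood vessels and heart as well as in neural progenitors. Their differences had opposite signs. Heyl, known from smooth muscle and pericytes besides the nervous system, stood at 5.55 in co-cultured and 4.42 in mono-cultured NSCs (difference 1.13, 2.19-fold). Both levels of Heyl were below the negative control level, and the mono-cultured level was also below the median gene level. With levels under 4.97 raised to 4.97 its difference was 0.58, and Heyl no longer reached 2-fold. Hey1 stood at 6.18 in co-cultured and 6.94 in mono-cultured NSCs (difference -0.76, 1.69-fold lower). Of the Hey genes it alone passed the negative control level, in mono-culture. Hey2 stood at 5.07 in co-cultured and 5.76 in mono-cultured NSCs (difference -0.70, 1.62-fold lower). The difference of Heyl thus exceeded those of Hey1 and Hey2 by 1.89 and 1.82. Hey1, the lowest member, stood next to Tmsb4x, Ciao2a and Bbs2, each also at -0.76. Among the kept genes 7.78% had a lower difference than Hey1.

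The Id genes also had differences of both signs. Id3 stood at 6.71 in co-cultured and 5.74 in mono-cultured NSCs (difference 0.97, 1.96-fold), and 5.18% of kept genes had a higher difference. Id3 lay above the negative control level in co-culture only, and its difference reached 1.03 to 1.05 after median centring, quantile normalization or loess. Id2, expressed in progenitors and in many immune cells, passed the negative control level on both arrays, at 6.75 in co-cultured and 7.47 in mono-cultured NSCs. Its difference of -0.72 is 1.65-fold lower. Id1, with Id3 the most typical BMP target of the family, stood at 5.40 in co-cultured and 5.41 in mono-cultured NSCs (difference -0.01). Id4, which is expressed in neural progenitors and astrocytes, stood at 5.17 in co-cultured and 5.48 in mono-cultured NSCs (difference -0.30). The difference of Id3 exceeded that of Id1 by 0.98 and that of Id2 by 1.70.

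**Figure D4:**
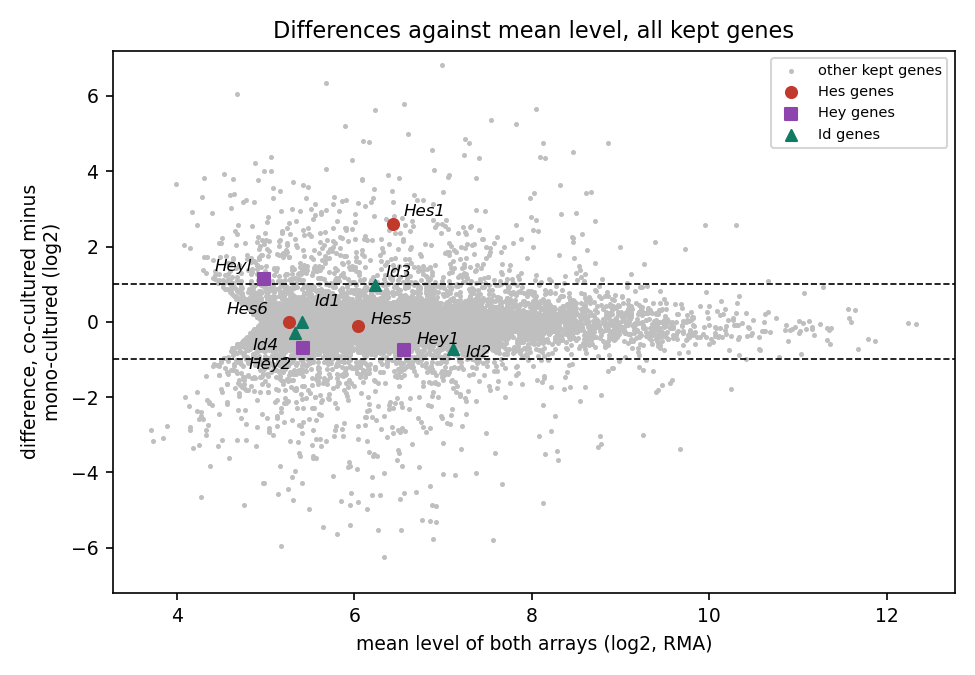
Difference between the arrays (co-cultured minus mono-cultured, log2) against mean level (log2) for all 11849 kept genes (grey), with Hes, Hey and Id genes marked and dashed lines at 2-fold. Hes1 stands at 2.60, Heyl at 1.13 and Id3 at 0.97, and the other members lie between -0.76 and -0.01.

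Genes of the Notch pathway, most of which act before the members, were mixed. Of 23 listed Notch ligands, receptors, modifiers and nuclear factors on the array 21 were kept. By 2-fold or more 2 were higher and 1 was lower, and the median difference was -0.04. The ligand Jag1 stood at 7.40 in co-cultured and 5.75 in mono-cultured NSCs (difference 1.66). In mono-culture Jag1 lay below the negative control level, so the size of its difference depends on the background. The receptor Notch2 stood at 7.99 in co-cultured and 6.85 in mono-cultured NSCs (difference 1.15). Manic fringe (Mfng) adds sugars to Notch and alters its choice of ligand. Mfng stood at 4.62 in co-cultured and 5.94 in mono-cultured NSCs (difference -1.32). It was kept only through mono-culture and lay below the negative control level on both arrays, so its difference depends on the background. Dlk1, a non-canonical ligand, differed by 0.68 and also lay below that level on both arrays. Jag1 and Notch2 had the highest differences of these 21 genes. The part of any Notch pathway gene in the levels of Hes1, Heyl, Hes5, Hey1 and Hey2 was not tested. Among the 4 kept relatives of the Hes and Hey genes, 1 was lower and 0 were higher by 2-fold or more. Bhlhe41, a clock-linked repressor, stood at 6.36 in co-cultured and 8.19 in mono-cultured NSCs (difference -1.83). In co-culture Bhlhe41 lay below the negative control level. Its close relative Bhlhe40 differed by -0.10. Hes3 and Hes7, below the negative control level on both arrays, differed by 0.18 and 0.09. The 5 Groucho co-repressor genes all lay within 2-fold with a median of 0.00. The widest difference was 0.81 for Tle1, which lay below the negative control level on both arrays.

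Of 17 kept BMP ligands, receptors and Smads, which act before the Id genes, 1 was at least 2-fold higher, 0 were lower and the median difference was 0.21 (0.36 over all 19 on the array). That gene was the ligand Bmp6, at 6.52 in co-cultured and 5.47 in mono-cultured NSCs (difference 1.05). The receptor Acvr1 differed by 0.92, Bmp2 by 0.65 and Smad9 by -0.74. Bmp6, Acvr1, Bmp2 and Smad9 lay below the negative control level on both arrays, so their differences depend on the background. Bmp2 was kept only through co-culture and Smad9 only through mono-culture. BMP antagonists, secreted proteins that mostly bind BMPs and block them, had 4 of 7 kept genes at least 2-fold higher and 0 lower. Of all kept genes 5.04% were higher and 5.54% were lower by as much. The median of the kept antagonists was 1.71, and it was 0.77 over all 9 on the array. Fstl1, at 8.97 in co-cultured and 6.78 in mono-cultured NSCs, differed by 2.19, and Chrdl1, at 8.24 in co-cultured and 6.26 in mono-cultured NSCs, by 1.97. Grem1 (10.39 in co-cultured and 3.57 in mono-cultured NSCs) and Fst (6.05 in co-cultured and 4.34 in mono-cultured NSCs) were kept only through co-culture, as their levels in mono-culture lay below the median gene level. Their differences, 6.82 and 1.71, therefore depend on the background. Chrdl1 lay below the negative control level in mono-culture, so the size of its difference depends on the background as well. Of the 4 genes only Fstl1 exceeded that level on both arrays. The count of 4 and the median of the 7 kept antagonists include Grem1, Fst and Chrdl1 and depend on the background too.

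The partners that Id proteins bind were close to equal. Tcf3 stood at 6.66 in co-cultured and 6.45 in mono-cultured NSCs (difference 0.21). Tcf4 differed by -0.24 and Tcf12 by 0.18, and all 3 E proteins lay within 2-fold. Of 13 proneural and lineage bHLH genes on the array, the targets of Hes repression and partners of E proteins, 3 were kept and 0 passed 2-fold. Olig1 differed by -0.44, Olig2 by -0.32 and Neurog2, below the negative control level on both arrays, by -0.07. The other 10 were below the median gene level on both arrays, so most proneural genes could not be compared at this brightness.

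**Figure D5:**
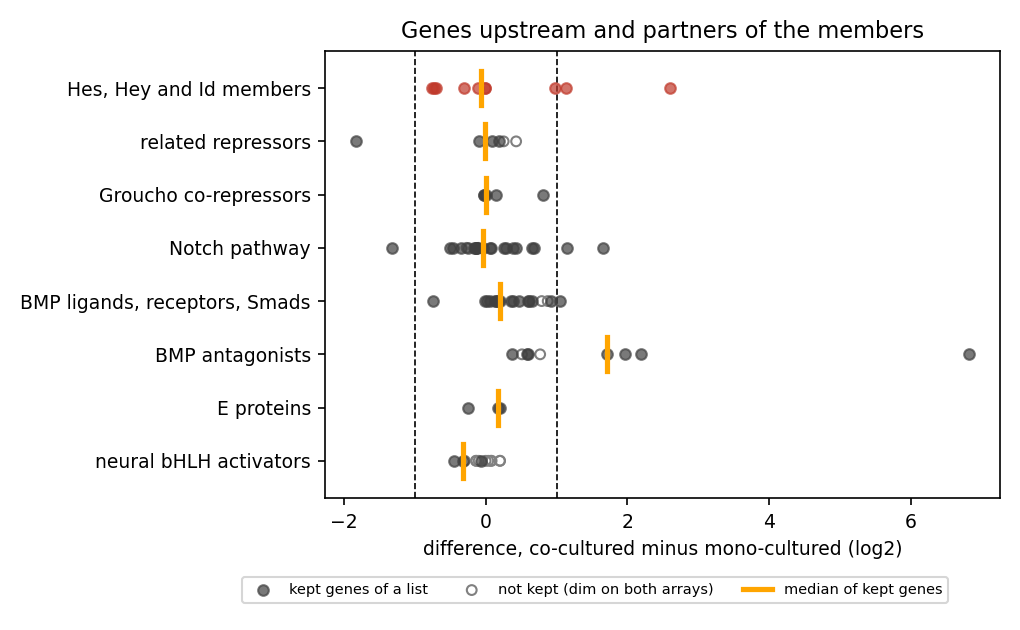
Difference between the arrays (co-cultured minus mono-cultured, log2) for the 10 members and the genes of 7 related lists, 1 point per gene, with open circles for genes that were not kept, an orange bar at the median of kept genes and dashed lines at 2-fold. The 7 kept BMP antagonists, of which Grem1 and Fst were kept only through co-culture, have a median of 1.71 (0.77 over all 9 on the array). The members have a median of -0.06.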

How the data were processed

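Biotinylated cDNA of 1 co-cultured and 1 mono-cultured NSC sample was made with a whole-transcript kit, per the labels' protocols. As deposited, the table holds log2 levels per probe set, for which the submitters' processing notes name RMA (background correction, quantile normalization and probe summary). No software or version is named in the labels. The values run from 0.33 to 12.74, as on a log2 scale. Probe sets with 1 symbol in the platform annotation (23446) were averaged per gene, and 505 with several symbols were left out. All 10 members matched RefSeq by Entrez ID under the same symbol. Members, lists and tests were chosen with earlier results of these data known. Named beside the members were up to 4 kept genes per pathway list with the largest absolute difference, all E proteins, and the 3 genes closest in difference to the highest and lowest members. The neural stem cell markers were named after their values were seen. Some listed genes had no single-symbol probe set and were not analysed here. The code for counting differences was tested on simulated arrays. No p-value was computed. The number of arrays limits the precision. Alternatives were median centring, quantile normalization, loess (span 0.4), other filters, the brightest probe set, raised dim levels and other thresholds. Python 3.11.15, numpy 2.4.6, pandas 2.3.3 and statsmodels 0.14.6 were used.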

Additional observations from a re-analysis of the deposited data

How the results depend on the processing

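With the values as deposited and under median centring, quantile normalization and loess, Hes1 had a difference of 2.60 to 2.66. Under the same settings Hey1 had one of -0.76 to -0.69, Hey2 of -0.70 to -0.63 and Id2 of -0.72 to -0.66. Taking the brightest probe set could not change any member, as each had 1 probe set. Raising dim levels could move only Heyl, as the other members lay above 4.97 on both arrays. Id3 ranged from 0.97 to 1.05 and so reached 2-fold under some scalings. Hes6 and Id1 ranged from -0.01 to 0.05, so their signs depend on the scaling. Heyl was 0.58 with dim levels raised, by construction of that setting. The count of members at least 2-fold higher was 1 with dim levels raised, with both levels required to reach the median gene level, with a limit at the 75th percentile, and at 4-fold. The limit at the 75th percentile left 4 members, a Hes and Hey median of 0.92 and an Id median of 0.13. The count of members higher by 2-fold or more was 3, with Id3, after median centring, quantile normalization or loess. At 1.5-fold 3 members were higher and 3 were lower. The mean difference of the Hes and Hey genes was 0.36. Over all kept genes, 313 had higher and 303 had lower levels by 2-fold or more when both levels had to reach the median gene level. At 1.5-fold 1095 were higher and 1347 lower, and at 4-fold 213 and 226. No paired analysis was possible because each group is 1 array. No replicate could be left out for the same reason. The low signal of 6 of the 10 members, which most genes on the array share, limits what their differences show.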
